A study of Mus musculus with 12 samples.

Results

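The ubiquitinated form of histone H2A, H2AK119ub, was compared between mouse blood progenitors that carried the charge-neutralized ASXL1 form 36EQ and progenitors that carried ASXL1 1-1067, the form it was built on. The members were the peaks of these 2 CUT&RUN libraries on chromosomes 1 to 19, X and Y: 6084 peaks with 36EQ and 6310 with 1-1067, or 12394 of the 159554 peaks in the 12 libraries of the series. Most peaks appeared in 1 list alone. The strongest peaks were mostly shared, and shared peaks lay at promoters more often than the others. Of the 21738 protein-coding genes, 707 (3.25%) had a promoter peak in both lists, 1146 (5.27%) only with 36EQ and 1296 (5.96%) only with 1-1067, and the remaining 18589 (85.5%) had none. Promoters here reach 2 kb upstream and 2 kb downstream of the canonical transcription start site (TSS).

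c-Kit+ cells, labelled as hematopoietic stem and progenitor cells, were taken from mouse bone marrow, cultured overnight and infected with 2 retroviruses. All groups received BAP1. The second virus carried ASXL1 1-1067 in the control group here, the 36EQ form in the other group, and, in 2 further libraries of the same labelled batch, the charge-neutralized form 34DN or an empty vector. The genotype is labelled mock for all, and strain, age and sex of the mice were not used here. Every condition had 1 library, so no difference below has a replicate check, no p-value was computed between libraries, and intervals (Wilson, 95%) cover counting error only. The BAP1 came from a virus in every group, the vector control included, and the cells kept their own Asxl1 and Bap1 genes as far as the labels say. The study examined how ASXL1 truncation and mutations related to condensation alter BAP1, ASXL1 and H2AK119ub on chromatin.

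H2AK119ub is placed by the RING ligases of Polycomb repressive complex 1 and is usually found over silent developmental genes, with lower levels spread through the genome. BAP1 is the enzyme that removes it, and ASXL1 is the partner that activates BAP1. Truncating ASXL1 mutations are common in myeloid leukaemia and its precursor states. The labels call 36EQ charge-neutralized, and its sequence change was not analysed here.

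Some properties of the libraries bear on every count below. The lists run to p of 0.001 without a q threshold, and 1990 peaks (32.7%) with 36EQ and 2006 (31.8%) with 1-1067 had q of 0.05 or less. The median peak was 294 bases wide with 36EQ and 279 with 1-1067, and the peaks covered 2.01 and 1.98 Mb. Background depth recovered from the lists was 2.85 fragments per base with 36EQ and 2.17 with 1-1067, a ratio of 0.762, against 2.59 with 34DN and 2.92 with vector. At the 1-1067 depth 4702 of the 6084 36EQ peaks (77.3%) would be expected to stay in the list. The part of depth in the class sizes is given with the alternatives in the closing section, and its part in single genes was not tested. Names inside the 36EQ and 1-1067 lists read as BAP1 runs with the codes 1067c2 and 1067wt and name no histone mark, so the mark and the construct rest on the sample titles. Peak lists hold no RNA, so the cell type could not be read from marker expression.

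The sequences of 3 promoter peaks per class, from the genes named for their fold, show the DNA behind the listed intervals. Each is a stretch of 101 bases inside the peak, as near to its summit as protein-coding exons allow, read 5′ to 3′ on the gene's strand from the GRCm39 genome, with CpG dinucleotides in capitals. The first set is from promoters with a peak in both lists.
Kdm4a (chr4:118036989-118037089, minus strand): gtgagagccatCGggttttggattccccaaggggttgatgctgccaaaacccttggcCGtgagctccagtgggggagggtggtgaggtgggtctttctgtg
Hdgfl2 (chr17:56386315-56386415, plus strand): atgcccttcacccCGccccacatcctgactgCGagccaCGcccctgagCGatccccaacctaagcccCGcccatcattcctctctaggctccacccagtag
Tbl2 (chr5:135178003-135178103, plus strand): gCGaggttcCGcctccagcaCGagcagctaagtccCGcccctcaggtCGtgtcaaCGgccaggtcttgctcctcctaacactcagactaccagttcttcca
These windows hold 2, 5 and 6 CpG. The Hdgfl2 window also holds a GC box (GGGGCGGGG on either strand). The second set leads the promoters listed with 36EQ only.
Rps19 (chr7:24583648-24583748, plus strand): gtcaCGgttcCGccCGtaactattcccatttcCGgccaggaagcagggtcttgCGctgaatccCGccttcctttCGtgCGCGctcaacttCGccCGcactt
Fastkd1 (chr2:69543871-69543971, minus strand): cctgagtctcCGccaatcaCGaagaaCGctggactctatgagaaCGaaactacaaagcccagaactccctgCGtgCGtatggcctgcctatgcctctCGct
Fiz1 (chr7:5017969-5018069, minus strand): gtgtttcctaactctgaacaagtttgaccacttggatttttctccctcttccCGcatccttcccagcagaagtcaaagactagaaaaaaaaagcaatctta
The Rps19 window holds 11 CpG, the Fastkd1 window 7 and the Fiz1 window 1. The third set comes from promoters listed with 1-1067 only.
Arpc3 (chr5:122528931-122529031, plus strand): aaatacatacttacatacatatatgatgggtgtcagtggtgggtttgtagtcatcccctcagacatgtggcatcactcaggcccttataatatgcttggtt
Rad51d (chr11:82781654-82781754, minus strand): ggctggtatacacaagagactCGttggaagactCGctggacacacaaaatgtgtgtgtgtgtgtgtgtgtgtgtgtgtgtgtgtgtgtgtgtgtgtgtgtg
Mterf1a (chr5:3945796-3945896, minus strand): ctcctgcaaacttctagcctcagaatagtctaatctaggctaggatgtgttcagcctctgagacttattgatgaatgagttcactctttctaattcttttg
Of these, the Arpc3 and Mterf1a windows hold 0 CpG, and the Rad51d window holds 2 beside a run of TG repeats. The Arpc3 and Mterf1a windows lie at -960 and -1939 bases from their TSS, upstream of the promoter core, whereas the Rps19 window lies at -98 bases. Genes with no stretch free of exons near the summit were passed over. Etfdh, which leads 1-1067 only, was passed over for this reason, and its peak is CpG-rich, at 6.39 CpG per 100 bases. By fold, Rps19, Fastkd1 and Fiz1 are the genes at places 1, 2 and 3 of 36EQ only. Arpc3, Rad51d and Mterf1a are at places 3, 6 and 13 of 1-1067 only. The CpG counts of the windows thus do not compare the classes. The windows are single examples, and the single-list classes had the same median CpG content around the TSS, as given below.

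Taking all peaks, 796 of 6084 with 36EQ met a 1-1067 peak by 1 base or more, a share of 13.1% (12.3 to 13.95). In the other direction 802 of 6310 did, a share of 12.7% (11.9 to 13.55). The share depended on strength. Of 36EQ peaks with -log10 p of 3 to 4, 58 of 1626 (3.57%) were met, of those with 8 to 12, 148 of 267 (55.4%), and of those with 12 or more, 69 of 75 (92.0%, 83.6 to 96.3). The 1-1067 list gave 3.92% in the weakest of these bins, 132 of 233 (56.7%) at 8 to 12, and 55 of 59 (93.2%, 83.8 to 97.3) at 12 or more. The weak peaks thus made up most of what was listed once. Near misses were few: of the unshared peaks, 151 of 5288 with 36EQ (2.86%) and 152 of 5508 with 1-1067 (2.76%) had a peak of the other list within 1 kb.

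**Figure D1:**
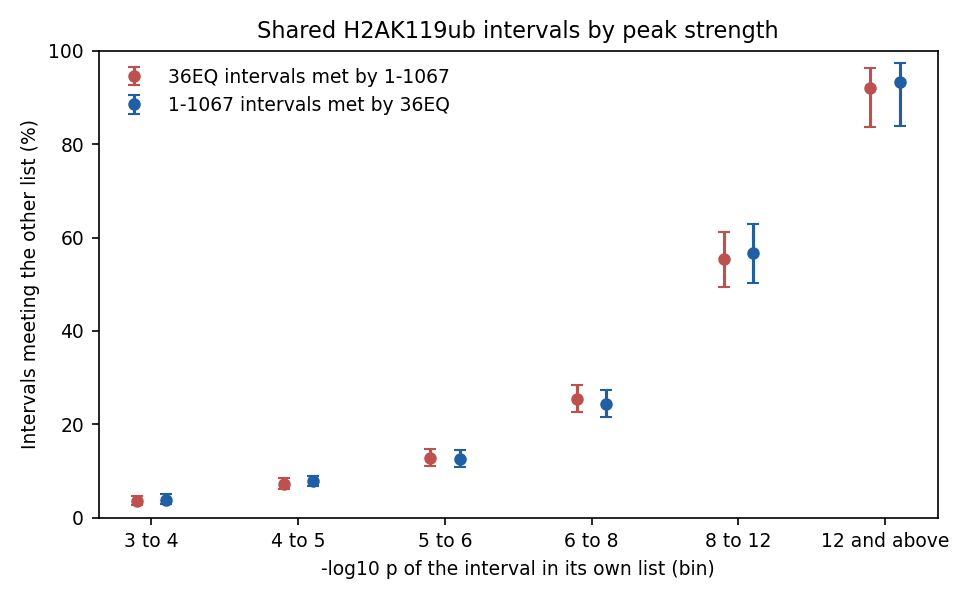
Share of peaks that met a peak of the other list (y axis, %) by -log10 p in their own list (x axis, bins), with Wilson 95% intervals. Both directions climb from under 4% in the weakest bin to 92.0% and 93.2% in the strongest.

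The other libraries of the same batch give the scale. With every list reduced to its 5307 strongest peaks, 14.1% of 36EQ peaks (13.2 to 15.02) met 1-1067, 12.4% met 34DN (11.6 to 13.3) and 10.7% met vector (9.88 to 11.5). For 1-1067 peaks the shares were 14.2% with 36EQ, 11.3% with 34DN and 11.25% with vector. The 36EQ and 1-1067 lists thus met each other more often than either met vector, beyond counting error. Whether this pair stands apart beyond the variation between libraries cannot be tested with 1 library each.

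Shared and unshared peaks lay in different places. Of the shared peaks 65.2% (61.8 to 68.4) overlapped a promoter, against 20.6% (19.5 to 21.7) of those listed with 36EQ only and 22.7% (21.6 to 23.8) of those listed with 1-1067 only. The median distance to the nearest TSS was 305 bases for shared peaks of the 36EQ list, 19070 bases for 36EQ only and 17670 bases for 1-1067 only. Unshared summits lay in introns in 36.1% and 35.8%, and outside genes in 39.1% and 38.4%. Shared peaks held a median of 4.79 CpG per 100 bases and 55.7% GC, and both unshared classes 0.998 CpG per 100 bases, with 45.5% GC for 36EQ only and 47.3% for 1-1067 only. The 2 unshared classes were thus close to each other in place and composition, and both differed from the shared class.

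Few unshared peaks were found with 34DN or vector, and about 3 in 10 in any other H2AK119ub library. Of those listed with 36EQ only, 5.67% (5.08 to 6.33) met a 34DN peak and 4.73% (4.19 to 5.33) a vector peak. Of those listed with 1-1067 only, 4.61% (4.09 to 5.20) met 34DN and 5.47% (4.89 to 6.10) vector. Of shared peaks 47.2% met 34DN and 43.0% vector. Counting all 6 other H2AK119ub libraries, 90.2% of shared peaks met at least 1, against 30.9% of 36EQ only and 32.9% of 1-1067 only. Among unshared peaks with q of 0.05 or less these shares were 49.6% and 43.5%.

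The strongest intervals outside promoters were common to both lists and often to other assays. The fold of a peak, here and below, is the value the authors' caller gave for fragments at the summit over the local background, and it ranks peaks within a list only. An interval at chr9:3006754-3007401, outside genes, had a fold of 19.4 in both lists. It was also in all 4 ChIP lists of the series, which were made with another antibody against tagged BAP1 or ASXL1. Another in all 4 ChIP lists was chr3:5925405-5925861, with a fold of 13.7 with 36EQ and 16.8 with 1-1067. The interval chrX:53912089-53913098, with 15.3 and 12.7, was in 2 of the 4. An exon of Lars2 (chr9:123290900-123291249, 14.0 and 11.0) and an intron of Sfi1 (chr11:3122290-3122751, 13.2 and 9.79) were in every H2AK119ub list and all 4 ChIP lists. Of the 69 shared 36EQ peaks with -log10 p of 12 or more, 31 were in at least 1 ChIP list and 23 in all 4. The other strong peaks were mostly promoters: 37 of the 69 overlapped one, and 34 of these 37 were in no ChIP list. The strongest shared folds therefore include regions listed regardless of the antibody.

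Intervals in 1 list with -log10 p of 12 or more were 6 with 36EQ and 4 with 1-1067. With 36EQ the leading one was the Rps19 promoter, followed by chr9:3000341-3000631 (fold 5.98) and chr8:21304070-21304555 (5.72), both outside genes and both in all 4 ChIP lists. With 1-1067 the leading one was chr1:170901943-170902194, with a fold of 6.45 and q of 7.36e-13. It lay outside genes, at -14896 bases from the TSS of Fcgr3, which encodes a low-affinity Fc receptor for IgG on myeloid cells. No ChIP list held it, whereas vector and all 4 libraries of the 1-590 set, another CUT&RUN batch made with a shorter ASXL1 form, did. The next, chr10:57981538-57981965 (6.32), was in vector and all 4 ChIP lists. An intron of Ets1, a transcription factor of lymphoid cells, had a 1-1067 peak at chr9:32623891-32624188 (fold 5.24) that was otherwise listed with 25RA, a form of the 1-590 set, alone.

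Promoter peaks were present in 1853 genes (8.52%) with 36EQ and 2003 (9.21%) with 1-1067. Of the 707 genes in both lists, 629 (89.0%, 86.4 to 91.1) had peaks that overlapped each other. A stricter reading, q of 0.05 or less in one list and no listed peak at all in the other, left 515 genes (2.37%) with 36EQ and 486 (2.24%) with 1-1067, nearly equal numbers. Peaks with q of 0.05 or less were present in 1010 genes (4.65%) with 36EQ and 953 (4.38%) with 1-1067. Of these, 356 genes (1.64%) passed in both lists, 654 (3.01%) with 36EQ alone and 597 (2.75%) with 1-1067 alone.

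All 3 classes with a peak were CpG-rich. Within 500 bases on each side of the TSS the median was 6.19 CpG per 100 bases for genes in both, 6.09 for each single-list class and 3.70 for genes in neither. In the quintile of genes with the least CpG, 0.115% were in both lists, 1.03% in 36EQ only and 1.22% in 1-1067 only. In the fourth quintile the shares were 6.395%, 7.91% and 8.90%. In the quintile with the most CpG the share in both lists was lower, at 4.62%, and those of the single-list classes were 8.12% and 8.90%.

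Where the peak sat relative to the TSS differed between classes. For genes in both lists the median distance from summit to TSS was 198 bases with 36EQ and 204 with 1-1067, and 82.7% and 82.9% of summits lay within 500 bases. For 36EQ only the median distance was 264.5 bases and 728 of 1146 summits (63.5%) lay within 500 bases. For 1-1067 only it was 364.5 bases and 727 of 1296 (56.1%). Among peaks with q of 0.05 or less and no listed peak in the other library, the shares within 500 bases were 74.4% and 61.5%. The 1-1067 list has the lower background depth, and the part of depth in this difference was not tested.

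**Figure D2:**
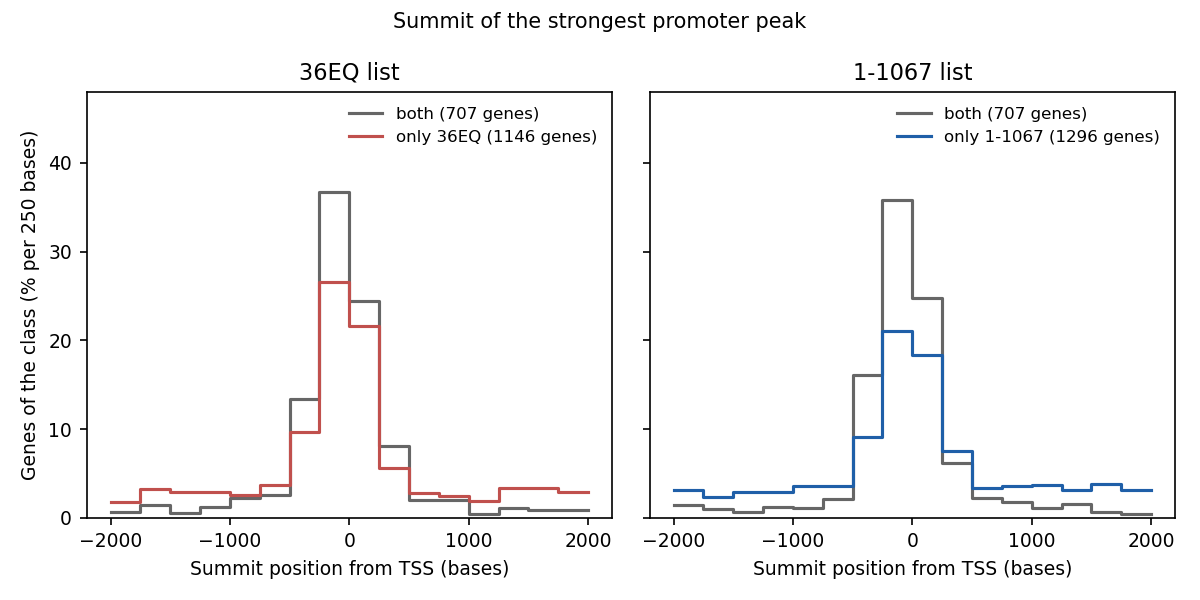
Position of the strongest promoter summit relative to the TSS (x axis, bases, negative upstream) for genes of each class (y axis, % of the class per 250 bases), in the 36EQ list (left) and the 1-1067 list (right). The bin just upstream of the TSS holds 36.8% and 35.8% of genes in both lists, 26.6% of 36EQ only and 21.1% of 1-1067 only.

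Letters of known promoter motifs were searched on both strands within 500 bases on each side of each TSS. The GC box GGGGCGGGG was present in 43.0% of promoters in both lists (39.4 to 46.7), 34.6% of 36EQ only, 35.7% of 1-1067 only and 23.8% of all promoters. The ETS site CCGGAAGT was present in 12.2%, 10.8% and 12.1%, against 7.32% of all. The YY1 core AAGATGGCG was present in 8.77% of promoters in both lists (6.90 to 11.1), 4.01% of 36EQ only (3.02 to 5.31), 5.17% of 1-1067 only (4.09 to 6.51) and 3.63% of all. The single-list classes had overlapping intervals for each of these motifs. The E-box CACGTG varied little, from 18.8% in both to 20.1% in 1-1067 only and 17.3% of all. These are matches of letters, each motif itself holding a CpG, and not sites shown to be bound.

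The other 6 H2AK119ub libraries had no part in forming the classes. Of genes in both lists 55.2% (51.5 to 58.8) had a promoter peak with 34DN and 47.8% (44.15 to 51.5) with vector, against 3.66% and 4.43% of genes in neither. Of genes listed with 36EQ only, 21.6% (19.35 to 24.1) had one with 34DN and 17.98% (15.9 to 20.3) with vector. Of genes listed with 1-1067 only, 14.97% (13.1 to 17.0) had one with 34DN and 19.2% (17.2 to 21.45) with vector. Thus 34DN, the other charge-neutralized form, held more of the 36EQ-only than of the 1-1067-only promoters, and vector held like shares of both. With q of 0.05 or less in all lists the direction for 34DN was the same but the intervals overlapped, at 20.8% (17.9 to 24.1) and 16.4% (13.7 to 19.6), and the vector shares were 13.5% and 13.4%. Genes under 1 peak are not independent, and background depth of 34DN (2.59) lies nearer to 36EQ than to 1-1067. With the 36EQ list brought to the depth of 1-1067 by expectation, the shares with 34DN were 23.05% and 16.1%. In the 1-590 library of the other batch, which lists 12001 promoters, the shares were 98.0%, 88.8% and 87.8%. At least 1 of the 6 libraries listed 94.3% of 36EQ-only and 93.8% of 1-1067-only promoters, beside 60.0% of genes in neither list.

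**Figure D3:**
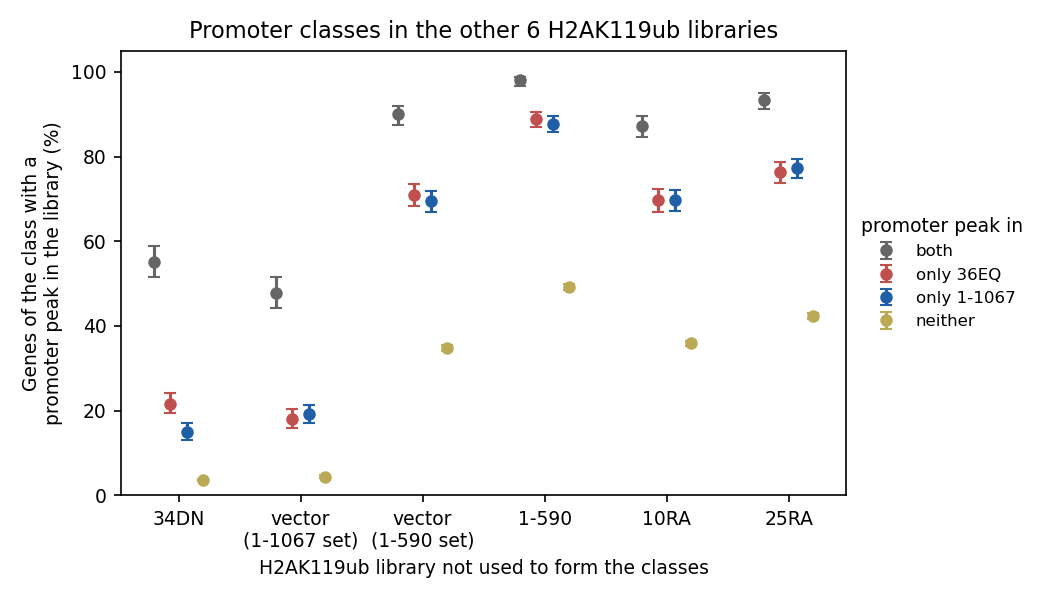
Share of genes of each class with a promoter peak (y axis, %, Wilson 95% intervals) in the 6 H2AK119ub libraries that did not form the classes (x axis). Genes in both lists are highest in each library, the single-list classes lie between them and genes in neither, and they are apart from each other with 34DN only, at 21.6% and 14.97%.

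The leading promoters in both lists were those of 12 genes. Kdm4a, a demethylase of histone H3, had a fold of 6.67 with 36EQ and 9.03 with 1-1067, and 5.33 with 34DN and 4.42 with vector. Hdgfl2, a chromatin reader of the HDGF family, had 5.77 and 6.71, with 5.81 in 34DN and 4.06 in vector. Both genes were thus listed throughout the batch. Tbl2 had 5.47 and 5.72, and Med11, a subunit of the Mediator complex, had 5.92 and 5.19. Cand1, which exchanges receptors of cullin ubiquitin ligases, had 5.19 and 5.67. The shared promoter of Cbx5, encoding a heterochromatin protein, and Hnrnpa1, encoding a splicing regulator, had 4.96 and 6.83. Cyth2, an activator of Arf GTPases, had 4.96 and 5.05 and was listed with neither 34DN nor vector. It was the only one of the leading shared promoters missing from both of those lists. Ogfod2 (7.02 and 5.46), Gm47996 (6.76 and 5.999), Zfp619 (5.22 and 5.42) and Alg14 (5.09 and 5.57), an enzyme of protein N-glycosylation, complete the set.

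Among promoters listed with 36EQ only, Rps19 stood first. It encodes a protein of the small ribosomal subunit that is mutated in Diamond-Blackfan anaemia. Its peak at chr7:24583460-24583849 had 28 fragments at the summit, at -98 bases from the TSS, a fold of 6.14 and q of 1.82e-11. The fold in 34DN was 4.51, no peak was listed with 1-1067 or vector, and all 4 libraries of the 1-590 set held one (2.95 to 6.89). The sequence printed above for Rps19 is centred on this summit. Fastkd1, a mitochondrial RNA-binding protein, followed with 5.33 and was in no other list of the batch, nor were the single peak over Fiz1, Zfp524 and Gm44973 (4.90) and the single peak over Desi1 and Xrcc6 (4.86). Xrcc6 encodes a subunit of the Ku complex of DNA end joining. Taf8, a subunit of the general transcription factor TFIID, had 4.85 with 36EQ and 5.40 with 34DN. Creb3l2, a membrane-bound transcription factor of the endoplasmic reticulum, had 4.72 and 3.65. Ppp6r3, a regulatory subunit of a protein phosphatase, had 4.57 and 4.09. Cirbp, an RNA-binding protein induced by cold, had 4.59 and 2.74. Snapin, a protein of vesicle and lysosome traffic, had 4.71 with 36EQ, 3.11 with 34DN and 2.84 with vector. Brf1, a factor of RNA polymerase III, had 4.43 with 36EQ and 3.02 with 34DN. Rps19, Taf8, Creb3l2, Cirbp, Ppp6r3 and Brf1 were thus listed with both charge-neutralized forms and with neither 1-1067 nor vector, a pattern by which they were chosen. Of all 36EQ-only genes 15.4% (13.4 to 17.6) had this pattern, and 10.2% (8.65 to 11.95) of 1-1067-only genes were in 34DN and not in vector.

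Promoters listed with 1-1067 only were led by the peak shared by Etfdh, a dehydrogenase of the mitochondrial electron transfer chain, and 4930579G24Rik, at chr3:79535688-79536439. It had 21 fragments at the summit, a fold of 5.70 and q of 8.59e-08, and a fold of 3.50 with vector. Neither charge-neutralized form had it, and all 4 libraries of the 1-590 set did (7.42 to 11.4). Arpc3, a subunit of the actin-nucleating Arp complex, had 5.05 with 1-1067 and 3.24 with vector. The peak over Cct6a, a chaperonin subunit, and Psph, an enzyme of serine synthesis, had 4.80 and 3.17. Mterf1a, a mitochondrial termination factor, had 4.74 and 3.32. These genes were listed with 1-1067 and vector and with neither 36EQ nor 34DN, the rule that chose them. Of all 1-1067-only genes 14.4% (12.6 to 16.45) had this pattern. Among 36EQ-only genes 11.7% (9.96 to 13.7) were in vector and not in 34DN, and the intervals overlap. Sec11c, a signal peptidase subunit, had 4.95 with 1-1067, 4.78 with 34DN and 3.03 with vector, and Psmd1, of the proteasome, 4.74, 3.45 and 3.94, so 36EQ alone lacked them in the batch. Srsf5, a splicing factor, had 4.93, the peak over Rad51d, a recombination protein, and Fndc8 had 4.83, the peak over Mastl, a mitotic kinase, and Yme1l1, a mitochondrial protease, had 4.74, and Dynlt1a, a dynein light chain, had 4.74. In this batch they were listed with 1-1067 alone. The Mterf1a, Mastl and Dynlt1a peaks have an equal q of 0.000554.

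**Figure D4:**
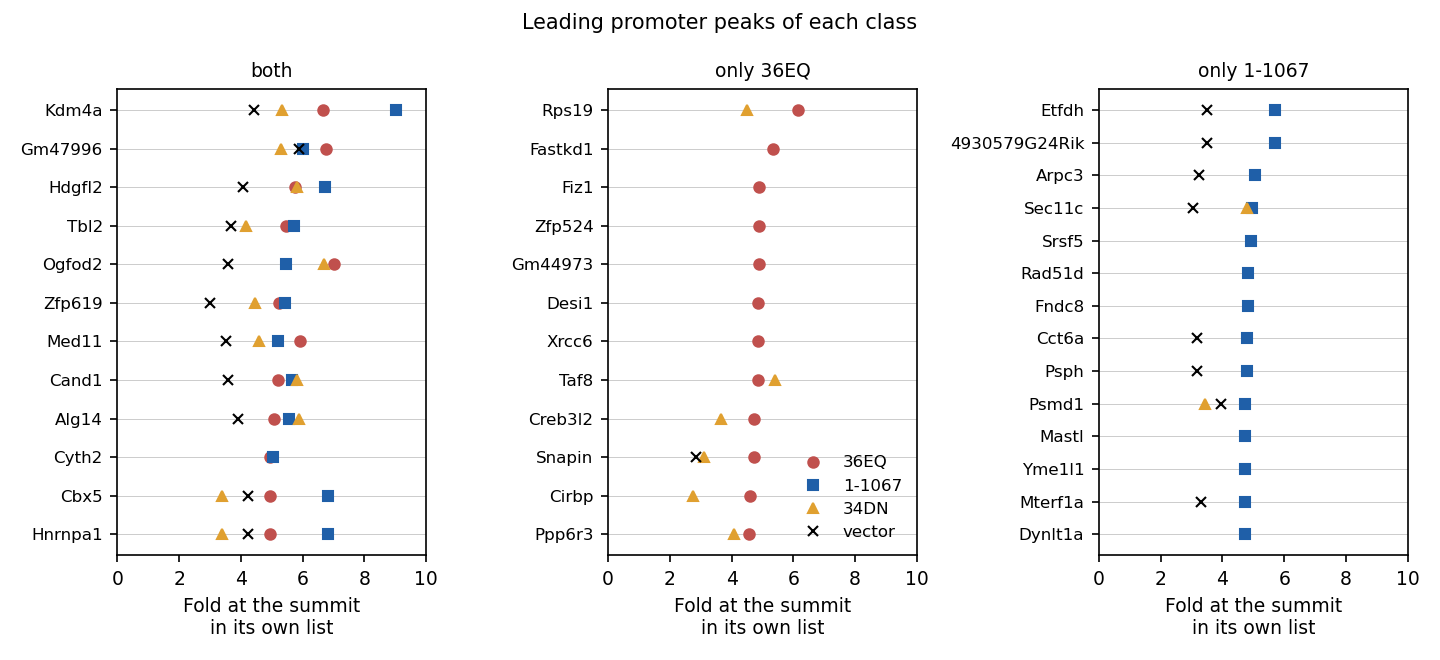
Fold at the summit of the strongest promoter peak in its own list (x axis) for the leading genes of each class (y axis), with no symbol where a list held no peak. Rps19 at 6.14 leads 36EQ only, Etfdh at 5.70 leads 1-1067 only, and folds of different lists are shown side by side without being compared.

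Promoters of classic Polycomb targets were few in both lists, and the 2 groups examined leaned to different lists. Only the Hox genes with 1-1067 lay near the background share. Of 39 Hox genes, which set body position and are silenced by Polycomb outside their domains, 0 had a promoter peak with 36EQ and 4 (10.3%) with 1-1067, 1 with 34DN and 2 with vector, beside 8.52% and 9.21% of all genes for 36EQ and 1-1067. The 4 were Hoxa13 (fold 2.96, q 0.000729), Hoxd13 (2.63, q 0.0585), Hoxa4 (2.59, q 0.132) and Hoxa3 (2.24, q 0.22). The Hoxa13 summit, with 31 fragments, lay at -1742 bases from the TSS over a local background of 9.80 fragments, well above the 2.17 of the library. The other Hoxa genes had no promoter peak in either list. Of 55 developmental regulators of other lineages 2 had a peak with 36EQ, Sox1 (2.49, q 0.287) and Neurog2 (2.35, q 0.0855), and 0 with 1-1067. The 1-590 library listed 25 of the 39 Hox genes and 33 of the 55 developmental regulators, so these promoters could be called in that batch. A gene with no listed peak may carry the mark broadly, since a local background takes up wide signal, and this was not tested. Bap1, Asxl1 and Cdkn2a, the last a well known Polycomb target, had no promoter peak in either list.

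Blood genes gave small numbers, to be read beside 8.52% of all genes with 36EQ and 9.21% with 1-1067. Of 43 regulators of stem cells and leukaemia, 4 had a promoter peak with 36EQ and 6 with 1-1067. Egr1, an immediate early transcription factor, was in both (4.43 and 5.21) and in 34DN (4.33) and vector (3.44). Ikzf1 (3.18, q 0.0364), a lymphoid transcription factor, Flt3 (2.82), a cytokine receptor of progenitors, and Mecom (2.22), a stem cell factor, were listed with 36EQ only. Nras (3.33), Lmo2 (3.25, q 0.0238), Lyl1 (3.04, q 0.0145), Spi1 (3.02) and Kmt2a (2.86) were listed with 1-1067 only. Of these 8 single-list genes 0 were listed with 34DN or vector. Most single-list genes lacked both: 66.7% of all 36EQ-only and 70.6% of all 1-1067-only genes were in neither. Kit, by which the cells were isolated, and Cd34, another progenitor marker, had no promoter peak in either list. Of 30 myeloid genes 0 and 1 had a peak (Itgam, 3.13), and of 27 lymphoid genes 1 and 2 (Notch1 in both, 2.85 and 2.44, and Cd8a with 1-1067, 3.51). Zfpm1, a cofactor of GATA factors in erythroid and megakaryocyte cells, was in both (3.86 and 2.43). Of 13 mast cell and basophil genes none had one in either list, and of 20 stromal and endothelial genes 1 and 2 did (Col1a1 in both, 3.71 and 3.50, and Bglap with 1-1067, 3.25). Myeloid genes, at 0 and 1 of 30, were thus under the background share in both lists, but single genes decide this. With promoters of 5 kb, 4 of them had a peak in each list. The 13 mast cell and basophil genes are too few to place, and vector listed 3 of them. Both groups have few CpG-rich promoters, with a median of 1.30 and 0.899 CpG per 100 bases against 4.30 for all genes.

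Among chromatin regulators, Polycomb subunits lay at about the background share of 8.52% with 36EQ and 9.21% with 1-1067. The BAP1 group is too small to place. COMPASS and other enzymes lay above that share in the lists as deposited. Their promoters held a median of 8.39 CpG per 100 bases, against 4.30 for all genes. Of 36 Polycomb subunits 3 had a peak in each list (8.33%) and none in both, where of all genes 707 were in both and 1146 and 1296 in 1 list. With 36EQ these were Rbbp4 (3.35), Jarid2 (2.84) and Yaf2 (2.77), and with 1-1067 Bcorl1 (3.44, q 0.00539), Rnf2 (2.72), the RING ligase that ubiquitinates H2A, and Pcgf5 (2.37). Of 14 genes of the BAP1 complex and its partners, 1 had a peak, Kdm1b with 36EQ (4.28, q 2.52e-07, and 3.71 with 34DN), a histone H3 demethylase. Of 30 genes for COMPASS and other chromatin enzymes 5 had one with 36EQ and 6 with 1-1067, turning to 4 and 1 at q of 0.05 or less. In both lists were 2 of them. Usp22, an H2B deubiquitinase, had 4.24 and 3.005, and Setd1b, a methyltransferase of H3, had 4.09 and 2.68. Ash2l (3.66), Dpy30 (3.35) and Kdm6a (3.32) were listed with 36EQ only, and Kmt2d (3.97), Kat7 (3.37), Setd2 (3.29) and Kmt2a with 1-1067 only.

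Cytokine signalling, interferon and growth genes also split by gene. Shares with 36EQ and 1-1067 were 6.67% and 16.7% for cytokine and JAK-STAT genes and 12.5% and 0% for interferon-stimulated genes. They were 16.0% and 24.0% for MYC targets and growth genes and 5.0% and 10.0% for CDK inhibitors and tumour suppressors. Of all genes 8.52% and 9.21% had a promoter peak. With 20 to 30 genes per group, single genes decide these shares. Of 30 cytokine and JAK-STAT genes 2 had a peak with 36EQ and 5 with 1-1067. Ifngr1, the interferon gamma receptor, was in both (3.82 and 4.56), Stat3 (2.96) with 36EQ, and Ifnar1 (3.03), Il2rg (2.91), Pim2 (2.72) and Stat4 (2.67) with 1-1067. At q of 0.05 or less the counts turned to 2 with 36EQ and 1 with 1-1067. Of 24 interferon-stimulated genes 3 had one with 36EQ and 0 with 1-1067: Bst2 (3.11, q 0.0252), Isg15 (2.55, q 0.174) and Irf1 (2.33, q 0.444). None of these 3 was listed with 34DN, where 3 other genes of the group were, and vector listed 0. Of 25 MYC targets and growth genes 4 had one with 36EQ and 6 with 1-1067. Ccnb1, a mitotic cyclin, was in both (3.27 and 3.48). Top2a (3.73), Fbl (3.05) and Mcm4 (2.82) were with 36EQ only. Of these, Top2a was also listed with 34DN (3.89), and Mcm4, a replication gene, with 34DN (3.91) and vector (2.91). Pcna (3.87), Mcm7 (3.85), Ccne1 (3.45), Mcm6 (2.92) and Cdk4 (2.58), most of them replication genes, were with 1-1067 only, and the first 4 of these also in vector. Of 20 CDK inhibitors and tumour suppressors 1 and 2 were listed (Cdkn2d in both, 3.02 and 3.17, and Cdkn1a with 1-1067, 2.53).

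Housekeeping families lay in both lists above the share of all genes, 8.52% with 36EQ and 9.21% with 1-1067. Their promoters were also richer in CpG. The median per 100 bases was 6.59 CpG for ribosomal protein genes and 5.69 for proteasome genes. It was 5.395 for mitochondrial ribosomal protein genes and for respiratory chain genes, against 4.30 for all genes. The part of CpG content in these shares was not tested. These families were taken by symbol pattern, so a few neighbours in name are included. Of 85 ribosomal protein genes 10 had a promoter peak with 36EQ and 13 with 1-1067, 7 of them in both, and 8 and 7 at q of 0.05 or less. Examples in both are Rps25 (4.85 and 4.38), Rpl32 (3.26 and 4.60) and Rps23 (3.51 and 4.04). Rps19, Rps21 (3.97) and Rps18 (3.09) were with 36EQ only, and Rpl27a (4.09), Rpl15 (3.69) and Rps9 (3.56) led the 6 with 1-1067 only. Of 78 mitochondrial ribosomal protein genes 10 and 11 had a peak and 2 had it in both, Mrpl41 (3.72 and 4.35) and Mrpl50 (2.46 and 3.43). These 2 are 2.56% of the group, beside 3.25% of all genes in both lists. The shares in both were 8.24% for ribosomal protein, 8.60% for respiratory chain and 13.7% for proteasome genes. Mrpl34 (3.799, q 9.12e-06) led 36EQ only and Mrpl18 (4.27, q 0.00261) led 1-1067 only. Of 93 respiratory chain and ATP synthase genes 11 and 17 had one, 8 in both, among them Uqcrh (4.76 and 4.19) and Atp5mc1 (4.25 and 4.57). Atp5f1b (4.44), the catalytic subunit of ATP synthase, was with 36EQ only and Ndufa12 (4.25), of the first complex of the chain, with 1-1067 only. At q of 0.05 or less the counts were 10 with 36EQ and 7 with 1-1067. Of 51 proteasome genes 10 had one in each list, 7 in both, with Psma1 (4.48 and 3.58) and Psme2 (3.72 and 3.94) leading. Psmc4 (4.31) was with 36EQ only and Psmd1 and Psmb5 (4.31) with 1-1067 only.

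Translation factors were listed more often with 36EQ than with 1-1067. Of 87 genes, 16 (18.4%) had a promoter peak with 36EQ and 9 (10.3%) with 1-1067, beside 8.52% and 9.21% of all genes. The group had 6 with 34DN and 14 with vector, lists that held 1513 and 1617 promoters of all genes. Its median of 6.19 CpG per 100 bases was above the 4.30 of all genes. Eif2s1, a subunit of the initiation factor that carries the initiator tRNA, was in both (3.75 and 5.10). The 13 with 36EQ only included Eif2b4 (3.89, q 0.00182), which recharges that factor, Eif3k (3.52, q 0.0171) and Eef1d (3.40, q 0.00155), all 3 also listed with 34DN, and Eif4g1 (3.02) and Eif4a1 (3.38) of the cap-binding complex. The 6 with 1-1067 only included Eef1a1 (3.97, q 0.00427), the main elongation factor, and Eif3d (3.73, q 0.00259). At q of 0.05 or less the counts were 9 and 7, and at matched depth 13.3 genes would be expected with 36EQ. Vector, at 14, lay nearer to 36EQ, and 34DN, at 6, nearer to 1-1067. The lists differ in length, and whether the charge-neutralized forms differ in this group was not tested.

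Of 69 spliceosome and SR protein genes 14 (20.3%) had a peak with 36EQ and 10 (14.5%) with 1-1067. These counts turned to 4 and 6 at q of 0.05 or less. The shares of all genes, for this and the groups below, were 8.52% and 9.21%. Hnrnpc (3.81 and 4.25) and Snrpd2 (3.22 and 3.48) were in both, Prpf8 (3.61) led 36EQ only and Srsf5 led 1-1067 only. Of 242 ubiquitin pathway genes 30 (12.4%) and 26 (10.7%) had one, and 27.0 would be expected with 36EQ at the depth of 1-1067. Fbxo47 (6.30 and 4.29), Usp20 (6.04 and 4.38) and Usp5 (3.95 and 4.96) were in both. Rnf40 (3.85 with 36EQ) and Rnf20 (3.13 with 1-1067), the partners of the H2B ubiquitin ligase, fell in different classes, and 34DN listed both (6.11 and 3.96). Of 487 zinc finger genes 62 (12.7%) and 55 (11.3%) had one, though 50.2 would be expected with 36EQ at the depth of 1-1067. Zfp619 and Zfp146 (3.83 and 5.20) were in both. Of 392 solute carrier genes 27 (6.89%) and 35 (8.93%) had one, Slc39a9 (3.20 and 7.13) being the strongest with 1-1067 and Slc25a38 (3.84 and 3.62) with 36EQ. Small GTPase genes (16 and 19 of 123) and kinase cascade genes (14 in each list, of 115) lay above the background share in both lists. Their median CpG per 100 bases, 5.99 and 6.99, was also above the 4.30 of all genes. Rab40c (4.69 and 5.10) and Rab11b (3.98 and 5.39) were in both. Histone genes, at 0 and 3 of 73, lay under it.

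Olfactory receptor, vomeronasal receptor, keratin and protocadherin families were nearly empty, beside 8.52% and 9.21% of all genes with 36EQ and 1-1067. Of 1187 olfactory receptor genes 5 had a promoter peak with 36EQ and 4 with 1-1067, none in both, of 351 vomeronasal receptor genes 1 in each list, the same gene Vmn1r4 (4.30 and 4.08), of 163 keratin genes 1 and 0, and of 59 clustered protocadherin genes none in either. Ion channel genes had 5 in each list of 161 (3.11%). Genes for G protein-coupled and neurotransmitter receptors had 5 and 7 of 185 (2.70% and 3.78%). Both groups were under the share of all genes but not empty. The median CpG content of olfactory receptor promoters was 0.400 per 100 bases. For ion channel promoters it was 4.50, against 4.30 for all genes.

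**Figure D5:**
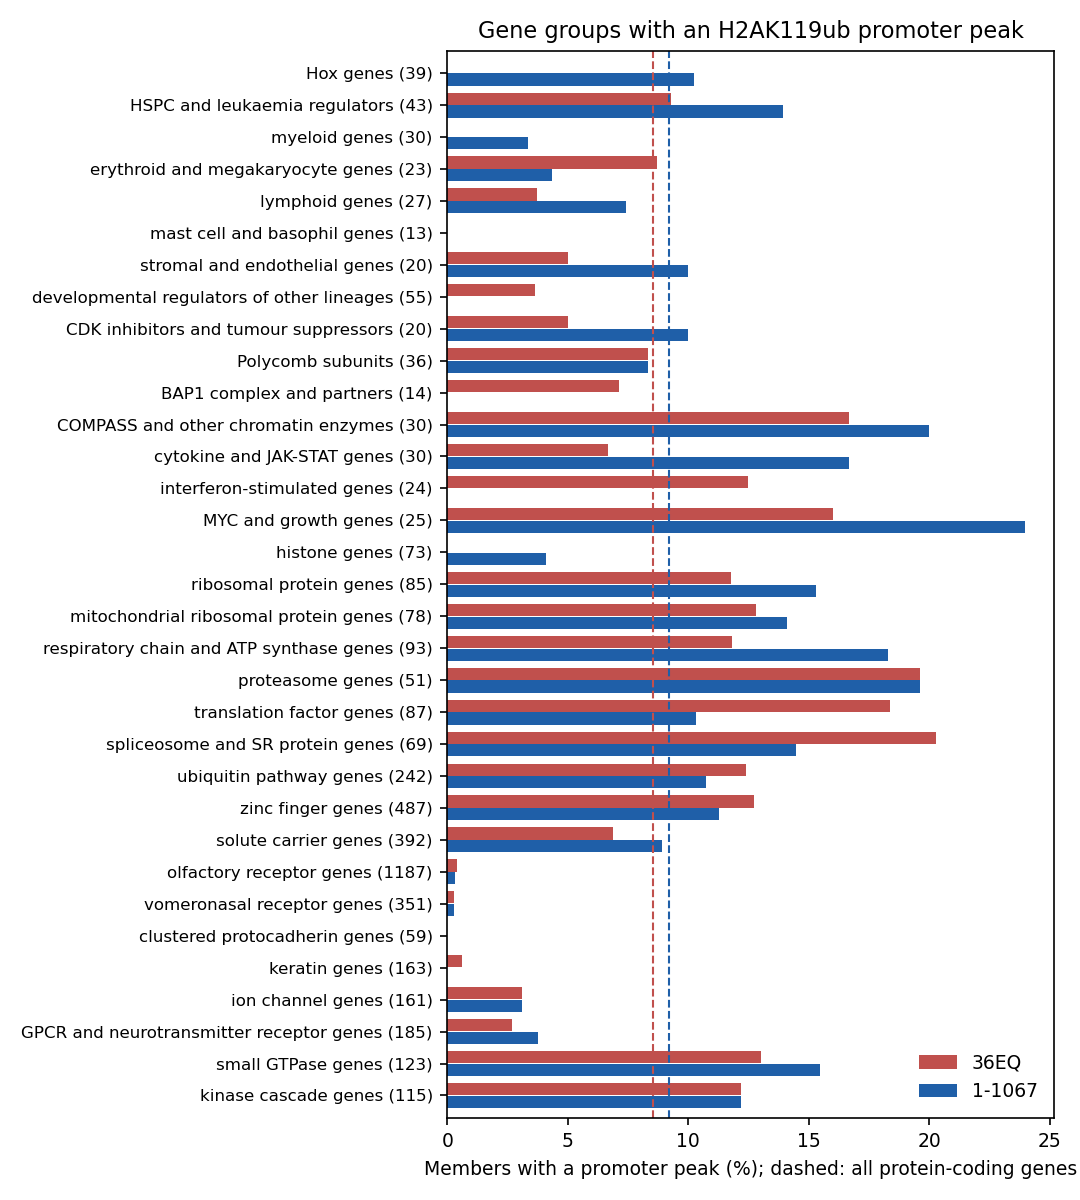
Share of each gene group with a promoter peak (x axis, %) with 36EQ and with 1-1067, the number of genes in brackets, and dashed lines at 8.52% and 9.21% for all protein-coding genes. Housekeeping groups lie right of the lines, olfactory and vomeronasal receptor families lie near 0, and Hox and histone genes have bars with 1-1067 alone.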

How the data were processed

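H2AK119ub was mapped by CUT&RUN and deposited as 1 peak list per condition. The genome build was mm39 (GRCm39), and MACS3 3.0.3, Picard, SAMtools, Bowtie2 2.5.4 and fastp 0.24.0 are named, per the submitters' processing notes. Reads of an E. coli spike-in served for scaling, per the labels' protocols, and a control library is not stated. The deposited fold enrichment is a ratio of summit fragments plus 1 to local background plus 1, from the authors' caller. The deposited -log10 p and -log10 q, and the score made from -log10 p, are the authors' own, per library. From fold and p, whole fragments at the summit were recovered for 100% of peaks, and the lowest background gave the depth.

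Peaks met where intervals shared 1 base or more (bedtools 2.31.1, Python 3.11.15, pandas 2.3.3, pysam 0.24.0). Genes were protein-coding in GENCODE vM39, 1 per symbol. Functions for overlap, promoter peaks, fragment recovery and depth matching were tested on simulated data. Genes named are the 12 (in both lists, 10) with the largest fold per class, with genes under equal peaks or folds named together, up to 6 members per class of each of 33 gene lists, the 6 leading each pattern shared with 34DN or vector, and the Hoxa genes with Cdkn2a, Asxl1 and Bap1. The YY1 core was shortened after shares of a longer form had been seen. Of the list symbols 1, Vpreb1, was not found. Members and lists were chosen with earlier results of these data known. The count of erythroid and megakaryocyte genes is not reported here.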

Additional observations from a re-analysis of the deposited data

How the results depend on the processing

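With overlap of 50% of both intervals the shared part of 36EQ and of 1-1067 peaks was 8.86% and 8.54%, with summits inside the other interval 10.5% and 10.7%, by covered bases 11.5% and 11.75%, at q of 0.05 or less 19.2% and 19.2%, and at p of 1e-05 or less 18.2% and 18.1%. Genes in both, 36EQ only and 1-1067 only numbered 356, 654 and 597 at that q and 404, 717 and 694 at that p, and at the background of 1-1067 by expectation 643.7, 951.1 and 1359. The vector share of 36EQ-only and 1-1067-only genes was 13.5% and 13.4% at that q and 14.9% and 17.15% at that p, and 21.6% of 1-1067 only with promoters of 1 kb. Promoter overlap of shared, 36EQ-only and 1-1067-only peaks was 72.5%, 36.0% and 32.2% at that q, 71.0%, 32.4% and 30.3% at that p and 70.2%, 28.6% and 30.2% with promoters of 5 kb. With promoters of 1 kb it was 16.0% and 16.6% for the single-list classes, and at matched depth 22.4% for 36EQ only. The cause of these shifts was not tested, beyond fewer peaks under stricter thresholds.

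In the 8 settings tried for gene groups, interferon-stimulated, translation factor and ubiquitin pathway genes had more members with 36EQ in each. Hox, stromal, solute carrier and G protein-coupled and neurotransmitter receptor genes had more with 1-1067. At q of 0.05 or less the counts, 36EQ first, were 1 and 0, 9 and 7, and 20 and 15 for the first 3 groups. For the other 4 they were 0 and 1, 1 and 2, 12 and 16, and 1 and 2. At matched depth ubiquitin pathway genes were close, at 27.0 with 36EQ by expectation and 26 with 1-1067. All settings reuse the same 2 libraries, so a repeated direction is not independent evidence. The direction turned for lymphoid genes and for CDK inhibitors and tumour suppressors at q of 0.05 or less (1 and 0 members each), for mitochondrial ribosomal protein genes with promoters of 5 kb (12 and 11) and for olfactory receptor genes with promoters of 1 kb (3 and 4), beside the turns given with the groups. Merging peaks within 1 kb, equal list lengths and all sequences left the shared part within its interval. Of the named genes without a promoter peak in either list, 3 gained one with promoters of 5 kb. A peak missing from a list at this depth is not an absent mark. No paired analysis was possible because each condition has 1 library and no replicate numbers.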
